A study of Mus musculus with 68 samples.

Results

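This account follows 1 step of red cell maturation in bone marrow of mice labelled GS-KO, the gate ERY-I-II set against the gate CFU-E that precedes it. The source label of ERY-I-II is ProE/BasoE, for proerythroblasts and basophilic erythroblasts, and CFU-E is the committed erythroid progenitor. The step rests on 6 of the 68 libraries of the series, 3 of GS-KO ERY-I-II and 3 of GS-KO CFU-E, which were taken by their labels alone, and all genes of the count table were used. The same step in wild-type (WT) libraries, 3 of ERY-I-II and 3 of CFU-E, is set beside it. Cells were enriched by flow cytometry, and total RNA was sequenced with a stranded kit for low input. GS is not spelled out in the labels and is taken here as glutamine synthetase, the product of Glul. The labels used here name no allele, Cre driver, strain, age or treatment, and do not say how many mice stand behind the libraries of a group.

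CFU-E cells divide quickly, depend on erythropoietin and still carry the stem cell factor receptor. Proerythroblasts and basophilic erythroblasts switch on globin and heme synthesis, assemble the spectrin-based membrane skeleton, take up iron and begin to wind down ribosome production. Glutamine synthetase joins ammonium to glutamate to make glutamine, whose nitrogen goes into nucleotides and other amino acids.

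Total counts were 4514190 to 4994752 in GS-KO ERY-I-II and 6254569 to 15806844 in GS-KO CFU-E, and 6385845 to 9872755 in WT ERY-I-II and 7114240 to 8335034 in WT CFU-E. Replicate libraries were nearly copies of each other. Over genes with a mean of at least 10 counts, 2 libraries of a group differed by 1.82 to 2.05 times the variance of counting noise in GS-KO ERY-I-II and by 1.99 to 4.94 times in GS-KO CFU-E. The highest of these values, between CFU-E replicates 2 and 3, owed 23.7% of its sum to the feature Mir6236. Without that feature it was still 3.77, against 1.80 and 1.83 for the other GS-KO CFU-E pairs. Nothing in the labels says that the libraries come from separate animals, so a p-value here speaks of library-to-library spread alone, and that spread may be technical. Levels are counts per 1000000 after TMM scaling of the 12 libraries of both genotypes (normalised CPM). Changes are log2 fold changes of ERY-I-II over CFU-E ± SE from edgeR's quasi-likelihood test, with Benjamini-Hochberg adjusted p and a threshold of 0.05. Scaling by library totals moved the median of all genes to -0.58, against -0.04 with TMM, so all changes are relative to the TMM scale. Where no genotype is named, ERY-I-II and CFU-E are the GS-KO groups.

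Glul, the gene taken to be targeted, had 20.5, 15.8 and 18.8 normalised CPM in GS-KO ERY-I-II, against 28.4, 30.7 and 29.5 in GS-KO CFU-E, and fell by 0.75 ± 0.12 (adjusted p = 1.9e-06). The ERY-I-II libraries lay below the CFU-E libraries without overlap. In WT the gene had 130.1, 120.2 and 129.9 normalised CPM in ERY-I-II, against 76.8, 72.6 and 72.3 in CFU-E, a change of 0.78 ± 0.05. The step thus went opposite ways in the 2 genotypes (difference -1.47, adjusted p = 1.0e-13), and every GS-KO library lay below every WT library of its gate. Counts are per gene, and reads from any part of Glul that remains in the knockout are included. Markers of the red cell line fitted the gate labels. Gata1, Klf1, Epor and Tfrc were expressed in every GS-KO library, Kit and Gata2 were higher in every CFU-E library and globin genes in every ERY-I-II library, with values in the paragraphs that follow.

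Of 10578 genes tested in GS-KO, 3994 (37.8%) were higher and 4303 (40.7%) lower in ERY-I-II. The counts of every gene list below are to be read beside these shares. Because nearly identical replicates let small differences pass, a second rule also asked for a change of at least 2-fold, which 1861 genes (17.6%) met upwards and 1876 (17.7%) downwards. Changes of at least 16-fold were more often rises, with 127 genes higher and 39 lower. With library totals in place of TMM 2345 genes were higher and 6563 lower.

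Among genes that averaged at least 5 CPM and whose gates did not overlap, the 8 highest changes lay between 6.14 and 6.42. Ackr1, the Duffy blood group chemokine receptor, had 46.0, 50.7 and 52.0 normalised CPM in ERY-I-II, against 0.393, 0.595 and 0.573 in CFU-E (6.42 ± 0.21). Cacna1g, a T-type calcium channel subunit, had 79.2, 62.6 and 71.6 normalised CPM in ERY-I-II, against 1.05, 0.51 and 1.15 in CFU-E (6.18 ± 0.18). In both genes the CFU-E libraries were close to 0 and every ERY-I-II library was far above them. Apol8, a member of the apolipoprotein L family, rose by 6.27 ± 0.15, and Fn3k, a kinase that removes sugar adducts from lysines, by 6.22 ± 0.10. The remaining places were held by Gm867, Apol11a and the globin genes Hba-a1 and Hbb-b2.

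At the other end Grb10, an adaptor that dampens growth factor receptor signalling, had 3.56, 4.21 and 6.79 normalised CPM in ERY-I-II, against 133, 125 and 125 in CFU-E (-4.76 ± 0.12). Gja1, a gap junction protein, had 2.19, 1.24 and 1.05 normalised CPM in ERY-I-II, against 44.6, 45.7 and 43.6 in CFU-E (-4.96 ± 0.20). Both genes were high in all CFU-E libraries and nearly gone in all ERY-I-II libraries. Il31ra, an interleukin receptor chain, fell by 5.35 ± 0.39. Slc22a3, an organic cation transporter, fell by 5.19 ± 0.29, and Gp5, a platelet glycoprotein, fell by 4.42 ± 0.35. Rpp40, a protein subunit of ribonuclease P, and the genes BC051537 and Syde2 completed the 8 lowest.

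Globin genes rose most as a group. All 6 tested members of the globin list rose at least 2-fold, against 17.6% of all genes, with a list median of 6.09 against -0.04 for all genes. Hbq1a had no count in CFU-E, and with this gene at its lower bound the list median was 6.02. Hba-a1, an adult alpha-globin gene, had 13689, 13703 and 13955 normalised CPM in ERY-I-II, against 179, 173 and 171 in CFU-E (6.25 ± 0.02, adjusted p = 8.8e-52). Hbb-b1, a beta-globin gene, had 15875, 15678 and 15866 normalised CPM in ERY-I-II, against 241, 237 and 230.5 in CFU-E (6.01 ± 0.02). The CFU-E values lie far from 0, and the libraries of each gate hardly differ from each other. Hba-a1 and Hba-a2, and Hbb-b1 and Hbb-b2, are near-identical copies, so the split of reads within each pair is uncertain. The other 6 listed names, embryonic globins and the alpha-globin chaperone Ahsp among them, were not tested.

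Genes of heme synthesis rose together. All 16 genes of the list rose, 13 of them at least 2-fold, and the list median was 2.67. Alas2, which makes the first intermediate of heme in red cells, had 4599, 4565 and 4596 normalised CPM in ERY-I-II, against 65.2, 64.4 and 61.4 in CFU-E (6.12 ± 0.03). Slc25a37, the mitoferrin that carries iron into mitochondria, had 3366, 3469 and 3394 normalised CPM in ERY-I-II, against 74.1, 78.4 and 71.3 in CFU-E (5.46 ± 0.03). Fech, which inserts iron into the porphyrin ring, had 2936, 2880.2 and 2936 normalised CPM in ERY-I-II, against 190.3, 179 and 185 in CFU-E (3.93 ± 0.03). The pathway's first and last enzymes and its iron carrier were thus high in every ERY-I-II library. Abcb10, a mitochondrial transporter that stabilises mitoferrin, rose by 3.53 ± 0.04. The housekeeping synthase Alas1 changed least, at 0.24 ± 0.08. Its call ended without GS-KO CFU-E replicate 2 (0.18, adjusted p = 0.051) or GS-KO ERY-I-II replicate 1 (0.16, adjusted p = 0.099), and with library totals its value was -0.30. Among 7 genes of heme export and breakdown 5 rose, with Hmox1, the inducible heme oxygenase, at 2.37 ± 0.18 and Abcg2, a porphyrin exporter, at 2.10 ± 0.05. Pgrmc1, a heme-binding membrane protein, fell by 1.46 ± 0.08.

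Iron genes moved less and in both directions. Of 21 tested, 13 rose and 4 fell, 9 and 1 of them at least 2-fold. The median was 0.68 on the TMM scale and 0.14 with library totals. Tfrc, the receptor for iron-loaded transferrin, had 3218, 3162 and 3139 normalised CPM in ERY-I-II, against 667, 645 and 676 in CFU-E (2.20 ± 0.02). Tfr2, the second transferrin receptor, had 86.9, 95.3 and 86.2 normalised CPM in ERY-I-II, against 146, 151 and 157 in CFU-E (-0.82 ± 0.06). The 2 receptor genes went opposite ways, each without overlap between the gates. Ncoa4, which delivers ferritin to autophagy, had 235, 256 and 244 normalised CPM in ERY-I-II, against 34.0, 29.1 and 32.1 in CFU-E (2.90 ± 0.06). The iron-sulfur cluster genes Isca1 and Glrx5 rose by 2.67 ± 0.05 and 1.84 ± 0.04.

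**Figure D1:**
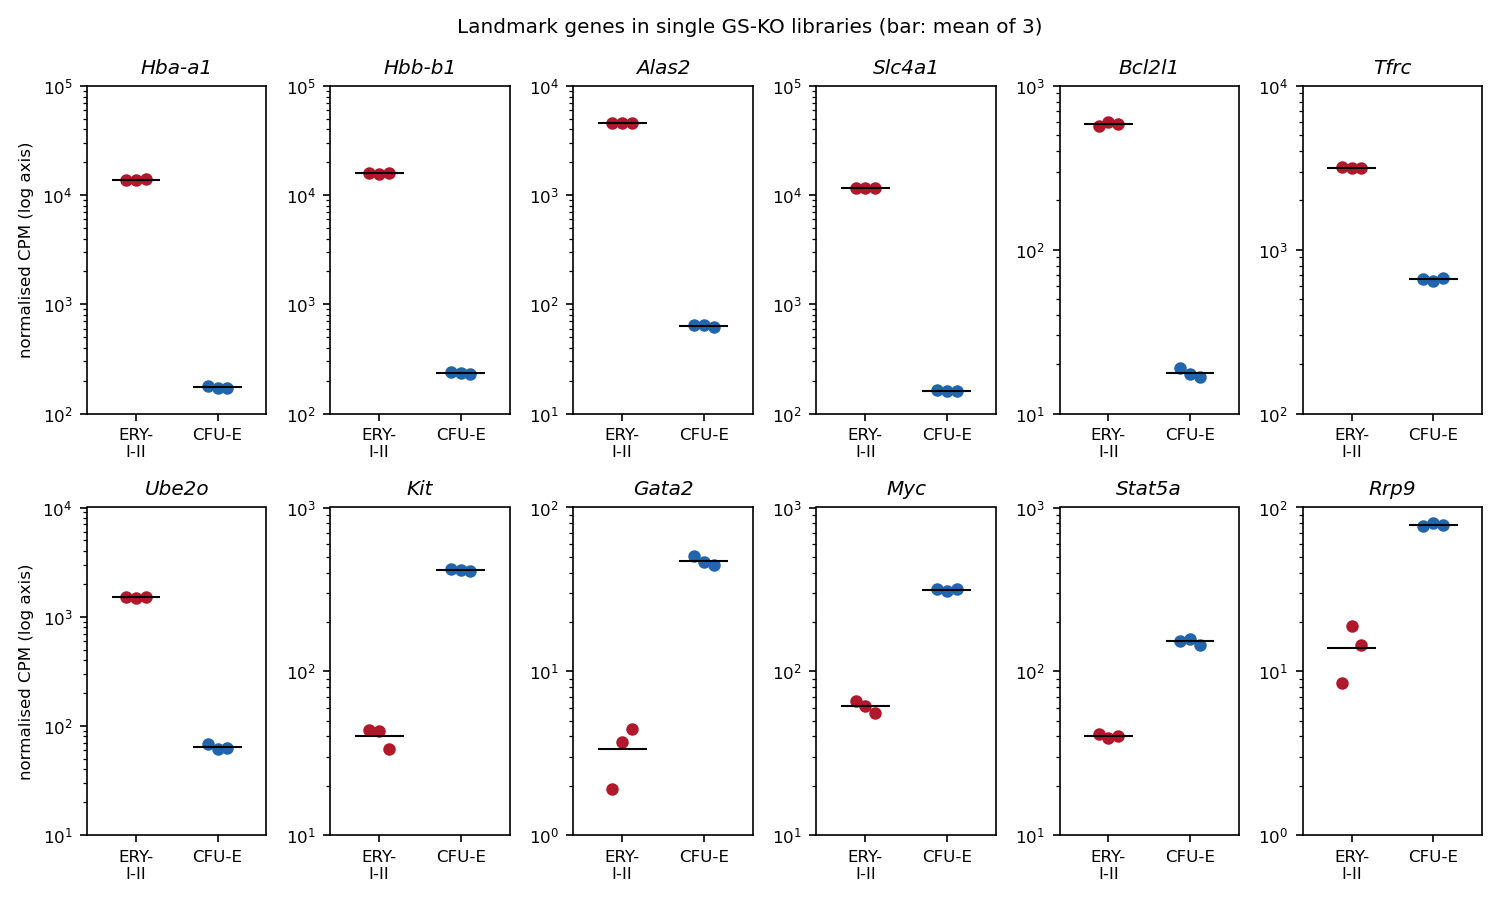
Normalised CPM (log axis) of 12 landmark genes in the single libraries of GS-KO ERY-I-II (left in each panel) and GS-KO CFU-E (right), with a bar at the mean of 3 libraries. Hba-a1, Alas2, Slc4a1 and Bcl2l1 were higher in every ERY-I-II library, and Kit, Gata2, Myc and Stat5a were higher in every CFU-E library.

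Promoters of steeply rising genes are shown because the transcription factors GATA1 and KLF1, which bind GATA and CACCC motifs, are known regulators of red cell genes. The sequences are from RefSeq (GRCm38.p6), 250 bases before to 50 bases after a listed start, in lower case with capitals for matches on either strand to the word GATA with A or T before it and A or G after it, and to CCACACCC or CCCCACCC. On the log2 scale Hba-a1 rose by 6.25, Alas2 by 6.12, Trim10 by 5.15, Sptb by 4.26 and Ackr1 by 6.42.
Hba-a1 promoter, chr11:32283422-32283721, plus strand: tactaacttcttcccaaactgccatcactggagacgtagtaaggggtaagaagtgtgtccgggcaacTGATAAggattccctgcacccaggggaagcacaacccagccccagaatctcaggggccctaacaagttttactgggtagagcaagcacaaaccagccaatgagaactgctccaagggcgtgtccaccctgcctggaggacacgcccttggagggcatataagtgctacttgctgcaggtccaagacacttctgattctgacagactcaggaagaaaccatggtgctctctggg
Alas2 promoter, chrX:150547167-150547466, plus strand: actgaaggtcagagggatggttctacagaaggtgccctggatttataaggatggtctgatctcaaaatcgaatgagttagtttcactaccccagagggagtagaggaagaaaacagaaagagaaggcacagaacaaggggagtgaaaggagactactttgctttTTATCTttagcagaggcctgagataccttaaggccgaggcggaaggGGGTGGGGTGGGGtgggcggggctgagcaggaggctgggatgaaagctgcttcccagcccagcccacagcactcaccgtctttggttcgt
Trim10 promoter, chr17:36869324-36869623, plus strand: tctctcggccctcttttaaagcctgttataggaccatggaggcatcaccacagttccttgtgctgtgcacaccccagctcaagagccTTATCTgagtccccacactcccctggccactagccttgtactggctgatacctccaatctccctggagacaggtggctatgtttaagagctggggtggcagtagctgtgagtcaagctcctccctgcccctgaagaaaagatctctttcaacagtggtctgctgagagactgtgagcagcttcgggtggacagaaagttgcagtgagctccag
Sptb promoter, chr12:76710498-76710797, minus strand: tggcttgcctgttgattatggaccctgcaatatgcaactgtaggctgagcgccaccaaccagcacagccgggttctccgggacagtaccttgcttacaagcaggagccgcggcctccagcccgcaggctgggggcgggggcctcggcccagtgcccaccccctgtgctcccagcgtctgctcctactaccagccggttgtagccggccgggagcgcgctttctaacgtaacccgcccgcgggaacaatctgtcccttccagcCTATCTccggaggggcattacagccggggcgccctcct
Ackr1 promoter, chr1:173333454-173333753, minus strand: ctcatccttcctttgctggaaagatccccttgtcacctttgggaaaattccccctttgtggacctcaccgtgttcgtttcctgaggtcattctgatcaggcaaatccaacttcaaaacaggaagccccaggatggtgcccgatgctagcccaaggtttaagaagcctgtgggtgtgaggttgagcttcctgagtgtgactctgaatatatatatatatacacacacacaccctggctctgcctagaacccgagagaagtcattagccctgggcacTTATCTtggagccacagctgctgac
Each of the 5 holds at least 1 GATA motif, and the Alas2 promoter also holds CACCC motifs, which overlap. The 5 were picked by hand with their changes and motif matches in view, so this says nothing of steeply rising genes in general. Of the 10578 genes tested 8533 had a promoter in the table. A GATA motif was present in 20.5% of promoters of genes at least 2-fold higher, 18.2% of those at least 2-fold lower and 18.1% of all genes tested. For 99 genes at least 16-fold higher the share was 35.4%, and for 90 genes at least 8-fold lower it was 25.6%. Both limits were chosen after seeing the values. A CACCC motif was present in 17.3% of promoters of genes at least 2-fold higher, 14.1% of those at least 2-fold lower, 14.8% of all genes tested, 23.2% of those at least 16-fold higher and 13.3% of those at least 8-fold lower. Over all 27025 promoters of the table the shares were 30.2% for GATA and 13.0% for CACCC. A match is a string of letters and was not tested as a binding site.

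Genes of the red cell membrane rose together. Of 31 tested, 28 rose, 27 of them at least 2-fold, 1 fell, and the median was 2.50. Slc4a1, the main anion exchanger of the red cell, had 11595, 11668 and 11744 normalised CPM in ERY-I-II, against 165, 159.7 and 160.0 in CFU-E (6.12 ± 0.02). Epb4.2, which ties the anion exchanger to ankyrin, had 942, 1004 and 1006 normalised CPM in ERY-I-II, against 23.4, 24.9 and 27.6 in CFU-E (5.20 ± 0.05). Both were many times higher in every ERY-I-II library, and genes of the skeleton beneath the membrane went with them. Tmod1, which caps actin filaments, rose by 5.71 ± 0.10, Dmtn, which bundles them, by 5.28 ± 0.04, and Sptb, beta spectrin, by 4.26 ± 0.02. Epb4.1, which links spectrin to actin, rose by 3.64 ± 0.02 and Ank1, ankyrin, by 2.62 ± 0.02. Rhag, an ammonium channel of the Rh complex, had 616, 635 and 639 normalised CPM in ERY-I-II, against 126, 140.4 and 138 in CFU-E (2.16 ± 0.04). The falling member was Add3, the gamma adducin gene, at -0.58 ± 0.08. Of 18 adhesion and surface genes 10 rose at least 2-fold, with Cd36, a fatty acid receptor, at 4.64 ± 0.08 and Cd24a, a surface glycoprotein, at 3.01 ± 0.02.

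Transcription factor genes moved both ways. Of 31 tested, 22 rose and 8 fell, 15 and 5 at least 2-fold. The list also holds Trim58, a ubiquitin ligase gene, which is counted among the 2-fold risers. Sox6, which represses embryonic globin, had 1066, 1096 and 1089 normalised CPM in ERY-I-II, against 21.3, 23.1 and 20.4 in CFU-E (5.60 ± 0.04). E2f2, a cell cycle factor needed for orderly division of erythroblasts, had 1240.0, 1206 and 1219.6 normalised CPM in ERY-I-II, against 36.1, 42.1 and 40.8 in CFU-E (4.87 ± 0.04). Foxo3 (2.48 ± 0.04), Nfe2 (2.65 ± 0.04) and Klf3 (1.90 ± 0.05) rose by smaller amounts. Klf1, a master regulator of red cell genes, had 638, 633 and 611 normalised CPM in ERY-I-II, against 218, 236 and 227 in CFU-E (1.41 ± 0.03). Gata1, its partner, had 298, 282 and 299 normalised CPM in ERY-I-II, against 148, 149.6 and 153 in CFU-E (0.91 ± 0.04), a change under 2-fold with separate groups. Factors of the progenitor state went the other way. Gata2 had 1.92, 3.71 and 4.44 normalised CPM in ERY-I-II, against 50.9, 46.3 and 44.7 in CFU-E (-3.84 ± 0.18). Myb, which keeps progenitors dividing, had 147, 149 and 154 normalised CPM in ERY-I-II, against 959, 958 and 961 in CFU-E (-2.73 ± 0.03).

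Most stem and progenitor genes fell. Of 31 tested, 22 fell, 19 at least 2-fold, and 6 rose, with a median of -1.35. Kit, the receptor for stem cell factor, had 43.6, 43.3 and 33.7 normalised CPM in ERY-I-II, against 421, 414 and 411 in CFU-E (-3.42 ± 0.06). Myc, a driver of growth and ribosome production, had 66.0, 61.6 and 55.7 normalised CPM in ERY-I-II, against 318, 309.8 and 318 in CFU-E (-2.42 ± 0.05). In both the CFU-E libraries were several times higher and the gates did not overlap. Meis1 (-2.38 ± 0.42), Hoxa9 (-2.87 ± 0.50) and Angpt1 (-2.85 ± 0.26), genes of early progenitors, fell too. The 6 that rose were Spi1 (1.09 ± 0.14), a myeloid transcription factor, and Csf2rb (0.75 ± 0.15), a cytokine receptor chain, with Vim (0.69 ± 0.07), Fli1 (0.37 ± 0.12), Lmo4 (0.34 ± 0.15) and Runx1 (0.34 ± 0.07), and all but Spi1 rose by less than 2-fold. With library totals the values were 0.55 for Spi1 (adjusted p = 4.0e-04), 0.21 for Csf2rb (adjusted p = 0.18) and 0.15 for Vim (adjusted p = 0.032). On that scale they were -0.17 for Fli1 (adjusted p = 0.19), -0.20 for Lmo4 (adjusted p = 0.22) and -0.20 for Runx1 (adjusted p = 0.0097). On that scale Spi1 and Vim still passed upwards and Runx1 passed downwards. The call of Lmo4 also ended without CFU-E replicate 1 (0.28, adjusted p = 0.13), CFU-E replicate 2 (0.31, adjusted p = 0.096), ERY-I-II replicate 1 (0.25, adjusted p = 0.18) or ERY-I-II replicate 3 (0.36, adjusted p = 0.054). Spi1 had 24.7, 29.2 and 29.5 normalised CPM in ERY-I-II, against 12.7, 13.6 and 11.8 in CFU-E, while its means were 0.461 in WT ERY-I-II and 0.402 in WT CFU-E. Markers of myeloid cells, given further on, moved in the same direction as these 6 genes on the TMM scale. With library totals the medians of neutrophil and macrophage markers were 0.57 and 0.61, while Fli1, Lmo4 and Runx1 were negative. The part of these markers in this result was not tested.

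Of 20 genes of erythropoietin signalling 7 rose and 8 fell, close to the 37.8% higher and 40.7% lower of all genes, so the counts do not set the list apart. By at least 2-fold 6 rose and 2 fell. Epor, the receptor, averaged 90.7 ± 8.33 normalised CPM in ERY-I-II and 33.4 ± 1.49 in CFU-E (SD, n = 3 each; change 1.39 ± 0.08), and the kinase gene Jak2 rose by 1.18 ± 0.04. Stat5a, a transcription factor activated by the receptor, had 41.1, 39.3 and 40.2 normalised CPM in ERY-I-II, against 154, 157 and 146 in CFU-E (-1.97 ± 0.07), and Stat5b fell by 0.67 ± 0.05. Receptor and kinase were thus higher and the factors below them lower in every ERY-I-II library. Among targets of the pathway the survival gene Bcl2l1 had 566, 599 and 588 normalised CPM in ERY-I-II, against 18.8, 17.4 and 16.6 in CFU-E (5.02 ± 0.05). The kinase gene Pim1 had 212, 179 and 189 normalised CPM in ERY-I-II, against 18.1, 15.8 and 17.9 in CFU-E (3.43 ± 0.08). Cish, a feedback inhibitor, was at 0.41 ± 0.43 and did not pass the threshold (adjusted p = 0.39).

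Cell division genes were higher in ERY-I-II. All 43 mitosis and cytokinesis genes rose, 38 at least 2-fold, with a median of 1.63. Mki67, a coat protein of mitotic chromosomes, had 18184, 18274 and 18328 normalised CPM in ERY-I-II, against 2686, 2649 and 2698 in CFU-E (2.72 ± 0.02). Cdc25b, a phosphatase that opens mitosis, had 677, 686 and 674 normalised CPM in ERY-I-II, against 13.5, 12.8 and 13.5 in CFU-E (5.62 ± 0.05). Of 42 DNA replication genes 38 rose and 2 fell, 23 rising at least 2-fold, for example Rrm2 (2.41 ± 0.03), a ribonucleotide reductase subunit, and Cdc6 (1.61 ± 0.03), which loads the replicative helicase. The D cyclins went opposite ways. Ccnd3 had 594, 599.5 and 601 normalised CPM in ERY-I-II, against 50.6, 53.5 and 50.0 in CFU-E (3.49 ± 0.04). Ccnd2 had 16.4, 18.3 and 32.4 normalised CPM in ERY-I-II, against 109, 109 and 108 in CFU-E (-2.33 ± 0.11), and Cdk6, a kinase partner of both, fell by 2.07 ± 0.05. Among brakes of the cycle Cdkn1b, an inhibitor of cyclin-dependent kinases, had 209.9, 219 and 214 normalised CPM in ERY-I-II, against 28.7, 29.5 and 30.2 in CFU-E (2.80 ± 0.06), and Btg2 (5.26 ± 0.06), Cdkn2d (3.82 ± 0.11) and Cdkn2c (2.82 ± 0.12) rose with it. Cdkn1a (0.65 ± 0.42), Tob1 (0.31 ± 0.15) and Rbl2 (-0.11 ± 0.08), also brakes, did not pass the threshold. Rbl2 passed downwards with library totals (-0.65, adjusted p = 5.2e-09) and without ERY-I-II replicate 2 (-0.23, adjusted p = 0.015), and Tob1 passed upwards without ERY-I-II replicate 3 (0.37, adjusted p = 0.037). Over the list of G1 cyclins and cell cycle brakes 16 of 26 rose at least 2-fold and 4 fell that much.

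**Figure D2:**
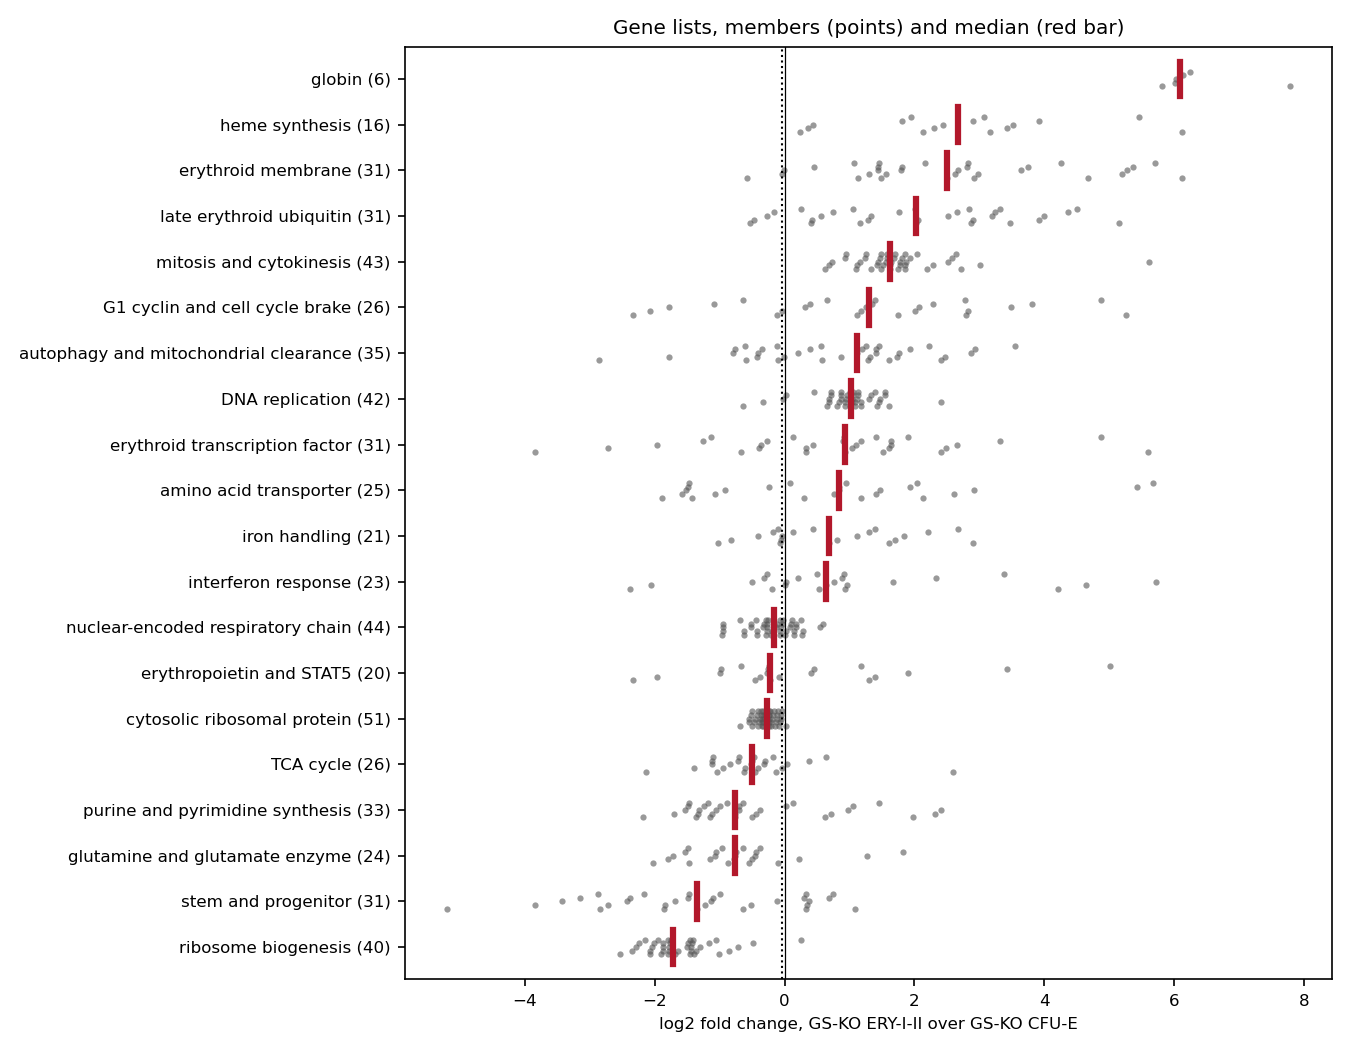
Log2 fold change of GS-KO ERY-I-II over GS-KO CFU-E for every tested member (points) of 20 gene lists, with the list median as a bar and the number tested in brackets. Globin, heme and membrane genes lie mostly to the right of 0 and ribosome biogenesis genes to the left, and the dotted line marks the median of all genes, -0.04.

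Genes of ribosome production fell. Of 40 ribosome biogenesis genes 39 fell, 36 at least 2-fold, and the median was -1.72. Rrp9, a protein of the small-subunit processome, had 8.49, 18.8 and 14.4 normalised CPM in ERY-I-II, against 76.9, 80.6 and 78.0 in CFU-E (-2.54 ± 0.13). Wdr12, needed for large-subunit assembly, had 35.6, 27.7 and 35.0 normalised CPM in ERY-I-II, against 158, 154 and 167 in CFU-E (-2.35 ± 0.08), and Polr1b, a subunit of RNA polymerase I, fell by 2.29 ± 0.08. These genes were lower in every ERY-I-II library. The mitochondrial ribosome showed a smaller shift, with 36 of 40 genes lower and a median of -0.77, for example Mrpl12 (-1.62 ± 0.06). Genes for cytosolic ribosomal proteins moved by less than 2-fold on the TMM scale. Of these 46 of 51 passed the threshold downwards, and the median was -0.27, or -0.81 with library totals. Among translation factors Eif2ak1, the heme-regulated kinase that slows translation when heme is short, had 799, 817 and 806 normalised CPM in ERY-I-II, against 116, 116 and 118 in CFU-E (2.73 ± 0.03), while Eif1a fell by 2.30 ± 0.11. Chaperones fell as well, 22 of 26 genes, with the mitochondrial Hspd1 (-1.97 ± 0.04) and Hspa9 (-1.70 ± 0.03). Dnajb2, a co-chaperone gene, was an exception and rose by 3.85 ± 0.07.

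Respiratory chain genes moved by small amounts on the TMM scale. Of 44 nuclear respiratory chain genes 23 fell and 7 rose on that scale, none by 2-fold. Their median was -0.16, or -0.70 with library totals. In the TCA cycle 20 of 26 fell and 3 rose, with a median of -0.51, or -1.04 with library totals. Suclg2, a succinyl-CoA ligase subunit, fell by 2.14 ± 0.14, and Pcx, pyruvate carboxylase, rose by 2.59 ± 0.09. In glycolysis Bpgm stood apart from the rest. Its enzyme makes bisphosphoglycerate, which loosens oxygen from hemoglobin, and the gene had 1531, 1494 and 1531 normalised CPM in ERY-I-II, against 34.3, 29.5 and 33.2 in CFU-E (5.50 ± 0.04). Both lactate dehydrogenase genes fell, Ldha by 1.79 ± 0.04 and Ldhb by 2.03 ± 0.25. Of 25 glycolysis genes 9 were higher and 14 lower. The counts of this paragraph stand against 37.8% higher and 40.7% lower of all genes.

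Enzymes that make or use glutamine and glutamate were mostly lower in ERY-I-II. Of 24 tested, 21 fell, 9 at least 2-fold, with a median of -0.77. Psat1, which moves nitrogen from glutamate to serine synthesis, had 15.9, 15.1 and 19.6 normalised CPM in ERY-I-II, against 65.3, 67.3 and 65.6 in CFU-E (-2.03 ± 0.11). Gfpt1, the entry enzyme of amino sugar synthesis, had 40.8, 34.1 and 37.1 normalised CPM in ERY-I-II, against 123, 119 and 129 in CFU-E (-1.79 ± 0.08). Cad, which starts pyrimidine synthesis from glutamine, fell by 1.49 ± 0.04. Gls2, a glutaminase gene, fell by 0.76 ± 0.25, and Glud1, a glutamate dehydrogenase gene, fell by 1.07 ± 0.08. The 2 rising genes of the list encode the subunits of the enzyme that starts glutathione synthesis. Gclc had 387, 380.0 and 394 normalised CPM in ERY-I-II, against 107, 105 and 106 in CFU-E (1.82 ± 0.04), and Gclm rose by 1.26 ± 0.04.

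Neighbouring pathways moved both ways, and their counts stand against 37.8% higher and 40.7% lower of all genes. In purine and pyrimidine synthesis 23 of 33 genes fell and 9 rose. The risers included the deoxynucleotide genes Rrm2, Dck (2.31 ± 0.04) and Tk1 (1.98 ± 0.07), and the fallers Dhodh (-2.18 ± 0.20), an enzyme of pyrimidine synthesis. Srm, which makes the polyamine spermidine, had 23.0, 19.1 and 19.9 normalised CPM in ERY-I-II, against 140.4, 135 and 143 in CFU-E (-2.82 ± 0.08). Amino acid transporters were 15 higher and 8 lower of 25. Slc6a9, which imports the glycine used for heme, had 324, 328 and 331 normalised CPM in ERY-I-II, against 6.28, 5.44 and 6.51 in CFU-E (5.68 ± 0.07). Among glutamine carriers Slc1a5 rose by 2.03 ± 0.05, while Slc38a1 had 79.5, 72.7 and 70.3 normalised CPM in ERY-I-II, against 217, 218 and 209.7 in CFU-E (-1.59 ± 0.05). Of the other tested Slc38 genes Slc38a2, Slc38a5 and Slc38a9 rose on the TMM scale and Slc38a7 fell. Among 22 genes of the integrated stress response 13 were higher and 8 lower, with a median of 0.65, or 0.11 with library totals. Ppp1r15a (4.56 ± 0.04), which restarts translation, and Ddit3 (1.80 ± 0.10), a stress transcription factor, rose, while the serine synthesis genes Phgdh (-2.53 ± 0.17) and Psph (-1.42 ± 0.16) fell. Of 32 antioxidant genes 19 rose and 8 fell, and the list median of 0.37 became -0.17 with library totals. Mgst3 (4.46 ± 0.08), Gpx1 (2.68 ± 0.02) and Prdx2 (2.18 ± 0.03), enzymes that remove peroxides, rose and Prdx6 (-1.71 ± 0.05) fell.

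Genes of protein and organelle clearance were mostly higher. Of 31 late erythroid ubiquitin genes 27 rose, 22 at least 2-fold, with a median of 2.02. Ube2o, an enzyme that marks ribosomal proteins for destruction, had 1528, 1494 and 1513 normalised CPM in ERY-I-II, against 68.7, 61.6 and 62.7 in CFU-E (4.51 ± 0.04). Trim58, a ubiquitin ligase, had 187, 188 and 197 normalised CPM in ERY-I-II, against 16.7, 17.5 and 19.9 in CFU-E (3.31 ± 0.07), and Trim10 rose by 5.15 ± 0.04. Among autophagy genes 18 of 35 rose at least 2-fold and 2 fell that much. Bnip3l, a receptor that hands mitochondria to autophagy, had 629, 589 and 656 normalised CPM in ERY-I-II, against 80.2, 80.6 and 84.0 in CFU-E (2.87 ± 0.04), and Gabarapl2, a coat protein of autophagosomes, rose by 2.93 ± 0.17. Proteasome subunits were 11 higher and 18 lower of 36, against 37.8% higher and 40.7% lower of all genes. Their medians were -0.10 on the TMM scale and -0.64 with library totals, and Psmf1, a proteasome inhibitor, rose by 1.96 ± 0.05. Xpo7, a nuclear exporter linked to nuclear condensation in erythroblasts, had 1863, 1909.8 and 1958 normalised CPM in ERY-I-II, against 60.1, 54.8 and 61.1 in CFU-E (4.97 ± 0.04). The linker histone gene Hist1h1c rose by 2.80 ± 0.02, and the DNA methyltransferase genes Dnmt3a and Dnmt3b fell by 1.70 ± 0.11 and 2.59 ± 0.17.

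The lists that follow are to be read beside the 37.8% higher and 40.7% lower of all genes. Of 12 genes of stem cell factor and glucocorticoid signalling 7 fell and 3 rose. Zfp36l2, an RNA-binding protein known to keep early erythroid progenitors immature, had 89.3, 70.0 and 78.1 normalised CPM in ERY-I-II, against 315, 302 and 317 in CFU-E (-2.03 ± 0.05). Among 14 immediate early genes 11 rose and Myc alone fell, with Dusp1, a phosphatase that switches off MAP kinases, at 4.72 ± 0.14. Targets of p53 were 8 higher and 8 lower of 18, near the shares of all genes, with a median of 0.29 on the TMM scale and -0.25 with library totals. Trp53inp1, a p53-induced autophagy gene, rose by 2.53 ± 0.10, while Aen, an apoptosis-enhancing nuclease, fell by 1.62 ± 0.11. Apoptosis regulators were 8 higher and 6 lower of 16, with a median of 0.27 on the TMM scale and -0.27 with library totals. Cytoskeletal genes linked to enucleation were 18 higher and 7 lower of 27, with a median of 0.43 on the TMM scale and -0.10 with library totals. Genes of chromatin and nuclear condensation were 22 higher and 11 lower of 34, at medians of 0.47 with TMM and -0.07 with library totals. Genes of ammonium, urea and polyamine metabolism were 3 higher and 4 lower of 8, and translation factors 5 higher and 26 lower of 33.

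Some interferon response genes rose steeply. Rsad2, an antiviral enzyme, had 1229.6, 1254 and 1221 normalised CPM in ERY-I-II, against 19.2, 23.9 and 23.2 in CFU-E (5.72 ± 0.04). Isg15, a ubiquitin-like modifier, had 56.2, 58.6 and 58.3 normalised CPM in ERY-I-II, against 2.49, 1.87 and 2.29 in CFU-E (4.65 ± 0.15). Bst2, which tethers virus particles, fell by 2.38 ± 0.30. In total 15 of 23 rose and 4 fell, 6 and 2 at least 2-fold. The list median was 0.64 on the TMM scale and 0.11 with library totals. The hairpin gene Mir144 was the only one of 16 listed erythroid and blood miRNA genes with enough counts to test. It rose by 3.26 ± 0.47, measured by reads on the gene and not on the mature miRNA.

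Markers of other blood cells were present in both GS-KO gates. The summed level of 17 neutrophil markers was 8422 to 8564 normalised CPM in GS-KO ERY-I-II and 3918 to 3968 in GS-KO CFU-E, and 138 to 147 in WT ERY-I-II and 25.2 to 27.7 in WT CFU-E. All 17 tested neutrophil markers rose in GS-KO, 11 at least 2-fold, with changes between 0.47 and 1.27. Ngp, a granule protein, had 1954, 1905 and 1961 normalised CPM in GS-KO ERY-I-II, against 772, 775 and 781 in GS-KO CFU-E (1.27 ± 0.02). Mpo, myeloperoxidase, was at 0.55 ± 0.03, and at 0.01 with library totals, where it no longer passed. In a bulk sample fewer cells of a type and less RNA per cell cannot be told apart.

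Summed macrophage markers were 805 to 853 normalised CPM in GS-KO ERY-I-II and 346 to 358 in GS-KO CFU-E. Of 14 tested, 12 were higher, among them Lyz2 (1.12 ± 0.04), lysozyme, and Vcam1 (2.16 ± 0.15), an adhesion molecule of macrophages in erythroblastic islands. B cell markers summed to 63.1 to 76.2 normalised CPM in GS-KO ERY-I-II and 32.8 to 35.0 in GS-KO CFU-E, with 9 of 10 tested higher. T and NK cell markers summed to 26.9 to 29.6 in GS-KO ERY-I-II and 13.3 to 14.2 in GS-KO CFU-E. Only 3 T and NK cell markers were tested, with 2 higher and 1 at -0.59 that did not pass. Megakaryocyte markers summed to 121 to 136 in GS-KO ERY-I-II and 60.0 to 62.8 in GS-KO CFU-E, with all 7 tested members higher in ERY-I-II. Mast cell, basophil and eosinophil markers summed to 334 to 362 in GS-KO ERY-I-II and 142 to 149 in GS-KO CFU-E, with 4 of 7 tested higher and 2 lower. Stromal and endothelial markers summed to 13.7 to 14.9 in GS-KO ERY-I-II and 15.4 to 16.3 in GS-KO CFU-E. Of the lists just named, 1 megakaryocyte and 1 mast cell, basophil and eosinophil marker had no count in any of the 6 GS-KO libraries. All these sums but the last were higher in ERY-I-II, and their part in the other results was not tested.

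**Figure D3:**
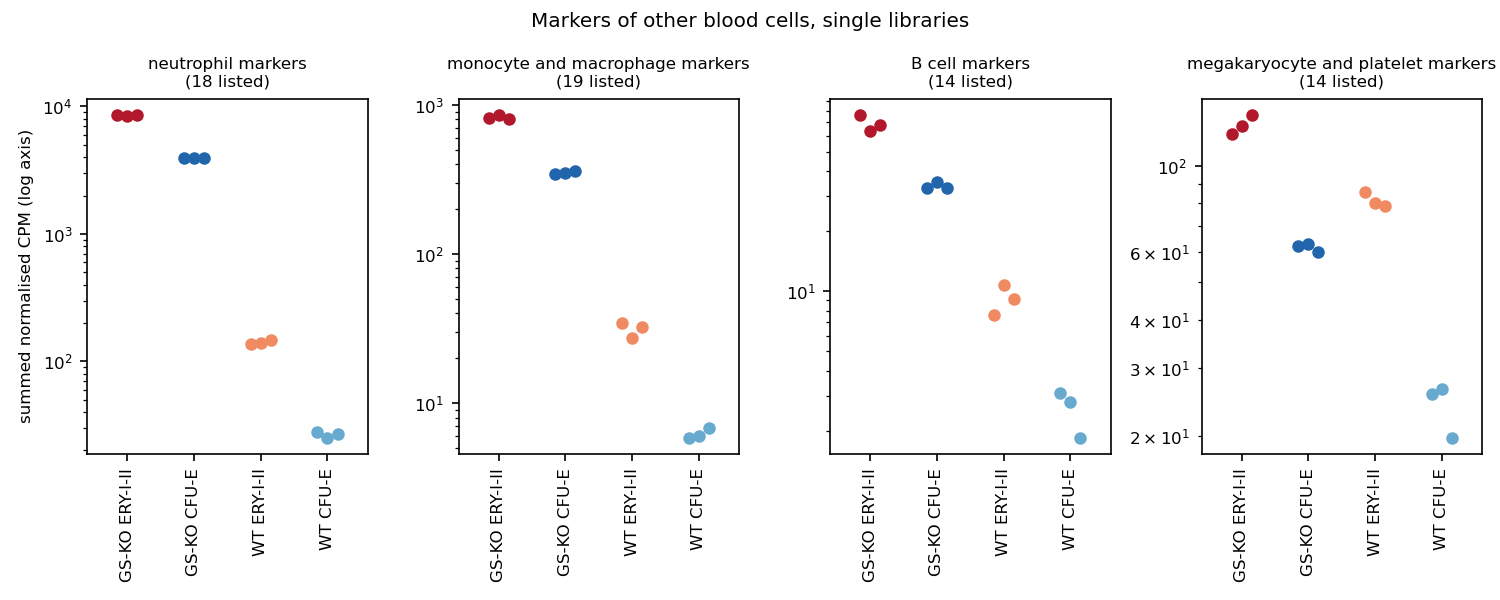
Summed normalised CPM (log axis) of the marker lists of 4 other blood cell types in each library of GS-KO ERY-I-II, GS-KO CFU-E, WT ERY-I-II and WT CFU-E. All 4 sums were highest in GS-KO ERY-I-II, and neutrophil markers sum to 3918 to 8564 in the 6 GS-KO libraries and to 25.2 to 147 in the 6 WT libraries.

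The same step was measured in WT libraries, which share none with the GS-KO comparison. Of 10197 genes tested there 4068 (39.9%) were higher and 4273 (41.9%) lower, 1645 (16.1%) and 2011 (19.7%) by at least 2-fold. Across 9960 genes tested in both, the changes had a Pearson r of 0.90 and a Spearman rho of 0.93, given as a description since genes are not independent replicates. Of changes of at least 2-fold among these genes 2896 were shared, 82.8% of those in GS-KO and 82.4% of those in WT, and 2 of them had opposite signs. Whether the size of the step differed between genotypes was tested in a fit of all 12 libraries. Of 11046 genes the difference passed in 2202 (19.9%). In 599 (5.42%) it was at least 1 on the log2 scale, 487 with a GS-KO step above the WT step (4.41%) and 112 with one below it (1.01%).

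**Figure D4:**
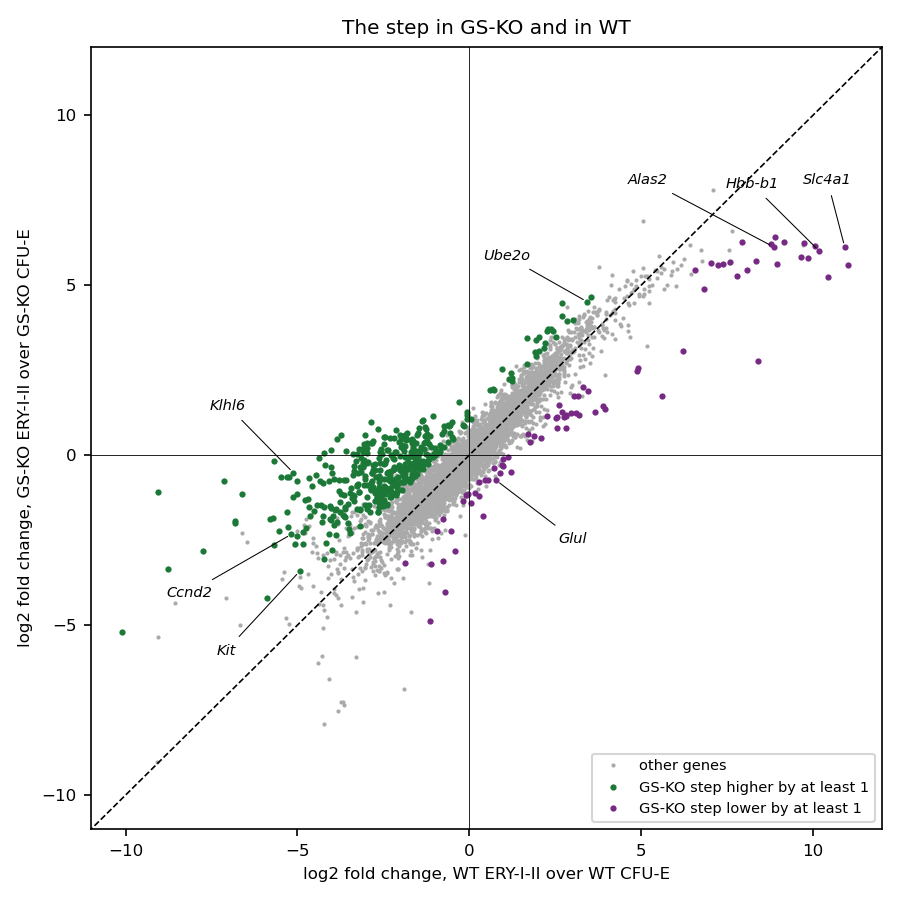
Log2 fold change of ERY-I-II over CFU-E in GS-KO (vertical) against WT (horizontal) for every gene tested in both, with genes whose step differed by at least 1 in colour and the line of equal change dashed. Slc4a1 lies at 6.12 in GS-KO and 10.91 in WT, Hbb-b1 at 6.01 in GS-KO and 10.17 in WT, and Kit at -3.42 in GS-KO and -4.94 in WT.

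Several of the steepest red cell genes had a smaller step in GS-KO. Slc4a1 rose by 6.12 ± 0.02 in GS-KO and by 10.91 ± 0.04 in WT (difference -4.73, adjusted p = 8.1e-51). Its ERY-I-II level was 11595, 11668 and 11744 normalised CPM in GS-KO, against 7755, 7730.2 and 7684 in WT, and its CFU-E level 165, 159.7 and 160.0 in GS-KO, against 4.13, 3.27 and 4.53 in WT. Both gates were higher in GS-KO, and CFU-E by the larger factor. Hbb-b1 had mean levels of 15806 ± 112 normalised CPM in GS-KO ERY-I-II and 7152 ± 48.2 in WT ERY-I-II (SD, n = 3 each), and 241, 237 and 230.5 in GS-KO CFU-E, against 5.88, 7.15 and 5.87 in WT CFU-E. The difference of its steps was -4.09. For Alas2, Hba-a1 and Slfn14, a ribonuclease gene, the differences were -2.66, -2.82 and -4.00. In all 5 genes the GS-KO CFU-E libraries lay above the WT CFU-E libraries without overlap. Over all 112 genes with a GS-KO step at least 1 below the WT step, the GS-KO CFU-E mean was above the WT CFU-E mean in 103 and the GS-KO ERY-I-II mean above the WT ERY-I-II mean in 78. Selection for a smaller GS-KO step favours a high GS-KO CFU-E level, so the count of 103 is in part built in. The same shares over all genes were not counted. Of 17 neutrophil markers 8 had a step at least 1 lower in GS-KO. Only 10 of the 17 passed the filter on low counts in WT libraries alone, so this count is a description, and its link with the red cell genes was not tested.

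Genes that were steep in WT fell in a narrow range in GS-KO. There were 17 genes that rose by a log2 fold change of at least 7 in WT, with at least 20 CPM in WT ERY-I-II and more than 3 counts in each CFU-E group. Their changes ran over 5.26 to 6.27 in GS-KO with a median of 5.82, against 7.02 to 10.91 in WT with a median of 8.85, and all 17 were smaller in GS-KO. Put as a share, GS-KO CFU-E held 1.21 to 2.54% of the GS-KO ERY-I-II level of these genes, a 2.11-fold range. WT CFU-E held 0.0515 to 0.766% of the WT ERY-I-II level, a 14.9-fold range. Fn3k, for example, had 201, 207 and 212 normalised CPM in GS-KO ERY-I-II, against 173, 173 and 154 in WT ERY-I-II, and 3.53, 2.98 and 2.08 in GS-KO CFU-E, against 0.206, 0.121 and 0.206 in WT CFU-E. The set was chosen on WT values after the pattern had been seen, some WT CFU-E values rest on few counts, and the description carries no test. A set cut at a high WT change favours smaller changes in GS-KO, so the count of all 17 is largely built in.

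**Figure D5:**
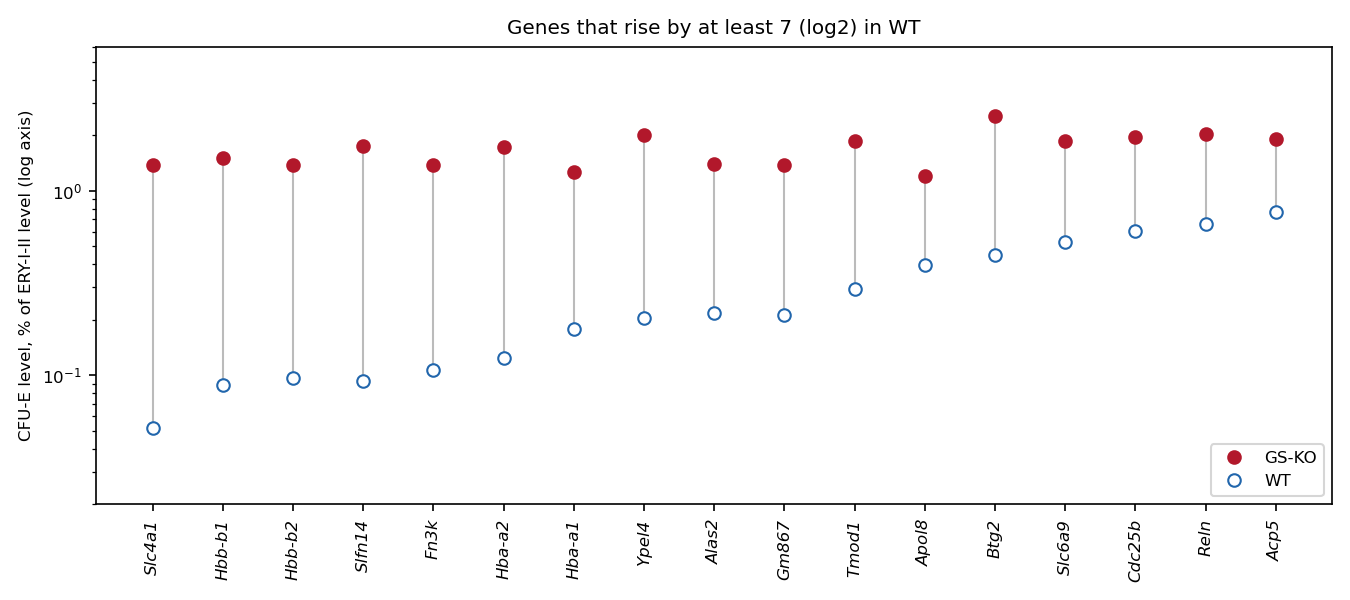
Level left in CFU-E as a percentage of the ERY-I-II level (log axis) for the 17 genes that rose by at least 7 (log2) in WT, with GS-KO as filled and WT as open points. The GS-KO points lie between 1.21 and 2.54%, and the WT points between 0.0515 and 0.766%.

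Genes with a GS-KO step above the WT step were more numerous. In the 487 of them with a difference of at least 1 the GS-KO ERY-I-II mean was above the WT ERY-I-II mean in 487, and the GS-KO CFU-E mean was above the WT CFU-E mean in 443. Selection for a larger GS-KO step favours a high GS-KO ERY-I-II level, so the first count is largely built in. The same shares over all genes were not counted. Among the 406 of the 487 genes with more than 3 counts in each of the 4 groups the median step was -0.32 in GS-KO and -2.20 in WT, so the typical gene of this kind fell less in GS-KO. Kit fell by 3.42 ± 0.06 in GS-KO and by 4.94 ± 0.05 in WT (difference 1.58, adjusted p = 4.1e-17), and had 43.6, 43.3 and 33.7 normalised CPM in GS-KO ERY-I-II, against 14.8, 12.5 and 13.4 in WT ERY-I-II. Ccnd2 had 16.4, 18.3 and 32.4 normalised CPM in GS-KO ERY-I-II, against 2.34, 1.75 and 3.27 in WT ERY-I-II (difference 2.91). Klhl6, a gene of lymphoid and myeloid cells, had 12.3, 17.6 and 13.1 normalised CPM in GS-KO ERY-I-II, against 0.541, 0.233 and 0.172 in WT ERY-I-II (difference 4.67). Its WT values rest on few counts. In these 3 genes every GS-KO ERY-I-II library was above every WT ERY-I-II library, as were the summed neutrophil markers, whose part in this was not tested. Ube2o had a mean of 1512 ± 17.2 normalised CPM in GS-KO ERY-I-II and 568 ± 6.05 in WT ERY-I-II (SD, n = 3 each; difference 1.16), and the difference for Epb4.1 was 1.26. Bnip3l and Fech had differences of 0.96 and 0.83, under the 2-fold mark, and so had Myb (0.99).

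Smaller differences ran through some lists. With library totals the median difference of all genes moved to -0.13, against 0.04 with TMM. Of 52 cytosolic ribosomal protein genes 49 had a GS-KO step below the WT step, against 5.13% of all genes, none of them by as much as 1, with a median difference of -0.28, or -0.45 with library totals. In WT 27 of 51 rose and 12 fell. Nuclear respiratory chain genes had 17 of 44 with a step below that of WT, or 37 with library totals. Late erythroid ubiquitin genes had 21 of 31 with a GS-KO step above the WT step, against 14.8% of all genes, and membrane genes 22 of 32. By at least 1 the difference was above in 2 of the ubiquitin genes and 2 of the membrane genes, against 4.41% of all genes, and 2 membrane genes were below by as much. With library totals 21 ubiquitin genes were above and 5 below, and 17 membrane genes above and 5 below. Of 25 enzymes of glutamine and glutamate 4 were above and 4 below, or 3 above and 11 below with library totals. Myc (0.01, adjusted p = 0.98) and Rrp9 (-0.04, adjusted p = 0.92) gave no difference that passed, which does not show that their steps were equal. Gata1 was at 0.03 (adjusted p = 0.71), and with library totals at -0.14 (adjusted p = 0.039), where it passed in the opposite direction. The counts of the difference depend on the scale in this way, since library totals gave 924 genes above and 2181 below, against 1635 above and 567 below with TMM.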

How the data were processed

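Bone marrow erythroid cells of GS-KO and WT mice were measured by total RNA-seq, and the libraries were grouped by their GEO labels. The authors deposited whole-number read counts per gene, not normalised, for the 30 libraries of the knockout series. STAR 2.5.2b, HTSeq and the mm10 build are named in the submitters' processing notes, and a stranded kit is named in the labels' protocols. For the annotation and the strand setting of the counting the sources used here give nothing, so overlapping, antisense and near-identical genes are uncertain. The stage series of WT cells was not used here.

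Counts were tested with edgeR 4.0.16 in R 4.3.3 (filterByExpr with a minimum count of 10, TMM scaling, quasi-likelihood F test, Benjamini-Hochberg adjustment over all genes tested). GS-KO ERY-I-II was set against GS-KO CFU-E in the 6 libraries concerned, WT likewise, and the difference of the 2 steps was tested in all 12. SE is the log2 fold change divided by the root of F. Calls need an adjusted p under 0.05, and 2-fold calls also a fitted log2 change of at least 1. Alternatives were DESeq2 1.42.0, limma 3.58.1 (voom with quality weights), RLE factors, library totals, globin genes left out, other low-count filters, a replicate term, all 30 libraries in 1 fit, each library left out in turn, and, chosen after seeing the data, a test against 2-fold. On simulated counts in the GS-KO comparison edgeR recovered 46% of genes changed by 0.3 (log2), 58% at 0.5, 88% at 1 and 100% at 2, and 6.41% of its calls were false. The simulation changed 50 genes at each size among 10578, up or down at random. In the data most genes passed, so these rates need not hold there.

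Genes were named by rule. They are Glul, fixed landmarks, the 8 highest and 8 lowest changes of at least 5 CPM, the largest movers of each of 44 gene lists with up to 2 that went against the list, the extremes of the difference between genotypes, and the most abundant markers of other cells. Of 137 genes with values 25 lie outside the rule and were chosen after their values were seen (Alas1, Angpt1, Ank1, Cad, Cdkn1a, Cdkn2c, Cish, Ddit3, Epb4.1, Glud1, Hoxa9, Jak2, Klf3, Lmo4, Meis1, Mir144, Nfe2, Psph, Rbl2, Runx1, Slc1a5, Sptb, Stat5b, Tob1 and Vim). The comparison, the rule and the lists were chosen with earlier results of these data known. Samples with the same replicate number were not treated as pairs. A few genes of these lists are not reported here.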

Additional observations from a re-analysis of the deposited data

Results flagged for a closer look

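The genes below, of those named above, had a step that differed between GS-KO and WT by at least 1 on the log2 scale (edgeR's quasi-likelihood test on the 12 libraries, adjusted p under 0.05), with more than 3 counts in each of the 4 groups. Values are the GS-KO step minus the WT step. The difference was negative for Slc4a1 (-4.73), Hbb-b1 (-4.09), Slfn14 (-4.00), Fn3k (-3.46), Hba-a1 (-2.82), Alas2 (-2.66), Tmod1 (-2.57), Btg2 (-2.46), Slc6a9 (-1.83), Cdc25b (-1.69) and Apol8 (-1.61). It was also negative for the myeloid genes Lyz2 (-1.56) and Ngp (-1.36), for Glul (-1.47) and for Vim (-1.06). It was positive for Alas1 (1.12), Ube2o (1.16), Isg15 (1.17), Epb4.1 (1.26), Kit (1.58), Fli1 (1.73), Lmo4 (1.96), Ccnd2 (2.91) and Klhl6 (4.67). Leaving out 1 library ended the call of Apol8 (WT CFU-E replicate 1 or 3), Isg15 (WT CFU-E replicate 1 or 2) and Vim (WT CFU-E replicate 2 or 3, or WT ERY-I-II replicate 2). Without those libraries the values were -1.47 and -1.47 for Apol8, 1.02 and 0.98 for Isg15, and -0.98, -1.05 and -0.58 for Vim. Several of these differences rest on few counts in WT CFU-E. Mean normalised CPM there was 0.137 for Slfn14, 0.178 for Fn3k, 0.259 for Apol8 and 0.356 for Tmod1. The difference for Klhl6 rests on few counts in WT ERY-I-II.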

How the results depend on the processing

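With library totals the GS-KO step had 2345 genes higher and 6563 lower, 1020 and 3500 by at least 2-fold, and the WT step 2462 higher, with 1042 higher and 3069 lower by at least 2-fold. The difference between genotypes then had 924 genes above and 2181 below, and 171 below by at least 1. Of the gene values given, these changed sign with library totals: Alas1 (-0.30), Fli1 (-0.17), Lmo4 (-0.20), Runx1 (-0.20), Cish (-0.13) and Tob1 (-0.23) in GS-KO, and the differences for Gata1 (-0.14) and Myc (-0.17). Cish, Tob1 and the Myc difference passed on neither scale. Tested against 2-fold itself, a rule added after seeing the data, 1203 genes were lower in GS-KO ERY-I-II, and the difference between genotypes had 167 genes above and 28 below. With all 30 libraries in 1 fit that difference had 1025 genes above and 222 below, 72 below by at least 1, and with the stricter filter of 5 CPM 307 genes above by at least 1. The cause of these shifts was not tested beyond the scale, the rule or the filter itself.

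Leaving out 1 library at a time gave 3878 to 3987 genes higher and 4115 to 4221 lower in GS-KO, 1900 to 1954 and 1869 to 1977 by at least 2-fold. In WT it gave 3956 to 4082 higher and 4100 to 4315 lower, 1663 to 1729 and 2001 to 2125 by at least 2-fold. For the difference between genotypes it gave 1486 to 1581 above and 427 to 543 below, 453 to 471 and 91 to 119 by at least 1.

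The deviations of same-numbered GS-KO libraries had correlations of -0.014, 0.0097 and -0.0070. Pairs of replicates differed by 1.82 to 2.05 times the variance of counting noise in GS-KO ERY-I-II and 1.99 to 4.94 times in GS-KO CFU-E. With so little spread to share, the correlations cannot tell whether same-numbered libraries were paired. With the replicate block 3745 genes passed the 2-fold rule in GS-KO, against 3737 without it, of which 3711 were shared. Depth limits the lowest genes, several of which rest on a few counts in WT CFU-E, and intervals were not drawn for them.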
